A study of Caenorhabditis elegans with 2 samples.

Results

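The major sperm protein genes and their sperm-specific companions were examined for binding of SOMI-1, a zinc finger protein of the nematode Caenorhabditis elegans. The set was defined by gene symbol alone, as protein-coding genes named msp, ssp or nspd followed by a number, and held 53 of the 19973 protein-coding genes on the 6 nuclear chromosomes. It comprised 31 msp genes, 12 ssp genes and 10 nspd genes. The data were chromatin immunoprecipitation followed by sequencing (ChIP-seq) from 2 biological replicates of 1 group, deposited as lists of peaks on the ce11 assembly, which is also called WBcel235. The animals were whole young adults, males and females pooled, at 65.5 hours after starved first-stage larvae from bleached mothers had been synchronised. All carried the unc-119 allele tm4063 and the integrated transgene wgIs752, in which somi-1 is joined to TY1, EGFP and 3xFLAG and which also supplies a working copy of unc-119, and an antibody against GFP was used for the precipitation. The sources used here do not give the cells in which the fusion protein was made, so whether it was present in cells that form sperm is not known from them. In whole animals, strong binding in a few cells and weak binding in many cannot be told apart.

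Major sperm protein (MSP) is the small protein whose filaments drive the crawling of the amoeboid sperm of nematodes, in which they take the place that actin has in other crawling cells. MSP released by sperm also acts as a signal that starts the maturation of oocytes and the contraction of the sheath cells around them. Its genes are many near-identical copies that are transcribed in the germ line while sperm form. The ssp genes encode short sperm-specific proteins that share the MSP fold, and the nspd genes encode a group of nematode-specific peptides that are abundant in sperm.

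The copies lay close together. Of the 31 msp genes 13 were on chromosome II and 18 on chromosome IV, and 42 of the 53 genes stood in 4 runs on these chromosomes. The ssp genes were on I, IV and V, and 2 of them share the symbol ssp-9 and are told apart here by gene identifier. The nspd genes were on I, II, III and IV. The genes were short: 50 of 53 had 1 coding exon and all 53 had 1 annotated 5′ end, which for 50 stood at the start codon. The MSP copies were 127 residues long in 28 of 31 cases, and the median identity over 465 pairs of MSP proteins was 98.4%, with 86 pairs identical. The coding sequences of msp genes had a median identity of 91.9% and their 300-base promoters, from 250 bases before to 50 after the 5′ end, 66.3%. The corresponding promoter medians were 64.4% for nspd genes and 53.3% for ssp genes.

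The stretches that precede many of these genes share short words. Each sequence below runs from 130 to 46 bases before the annotated 5′ end, on the strand of the gene, in the WBcel235 assembly as held by RefSeq. The capitals mark the words GATAAG and AGATCT on either strand (CTTATC is GATAAG read from the other strand).
msp-3, chrII:4786327-4786411, minus strand: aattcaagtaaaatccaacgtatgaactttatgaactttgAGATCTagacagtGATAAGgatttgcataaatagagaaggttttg
msp-50, chrII:5199667-5199751, plus strand: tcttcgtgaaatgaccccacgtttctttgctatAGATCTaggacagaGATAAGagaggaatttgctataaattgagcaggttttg
msp-19, chrIV:5260459-5260543, plus strand: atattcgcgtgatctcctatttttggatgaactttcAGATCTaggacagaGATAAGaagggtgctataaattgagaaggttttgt
msp-113, chrIV:5297832-5297916, plus strand: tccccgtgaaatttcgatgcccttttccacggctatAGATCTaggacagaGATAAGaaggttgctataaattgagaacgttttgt
msp-64, chrII:5810376-5810460, minus strand: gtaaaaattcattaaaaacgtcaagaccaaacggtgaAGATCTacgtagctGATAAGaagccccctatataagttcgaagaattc
msp-142, chrII:5797797-5797881, plus strand: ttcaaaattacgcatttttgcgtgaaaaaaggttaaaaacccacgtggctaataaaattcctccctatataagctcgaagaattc
nspd-4, chrII:4842478-4842562, plus strand: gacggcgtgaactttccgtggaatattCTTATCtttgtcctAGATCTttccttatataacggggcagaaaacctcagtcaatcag
nspd-9, chrIII:4830353-4830437, minus strand: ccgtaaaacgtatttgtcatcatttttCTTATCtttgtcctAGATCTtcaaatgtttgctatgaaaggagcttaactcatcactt
ssp-9 (WBGene00006038), chrIV:4994746-4994830, minus strand: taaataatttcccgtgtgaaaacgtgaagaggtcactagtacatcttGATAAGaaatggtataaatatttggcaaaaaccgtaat
ssp-33, chrV:14711247-14711331, plus strand: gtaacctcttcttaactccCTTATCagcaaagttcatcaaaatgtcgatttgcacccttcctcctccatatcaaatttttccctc
The msp genes shown, except msp-142, carried the same pair of words in the same order. The AGATCT word began a median of 94 bases before the 5′ end in the 23 msp genes that had it, and lay 70 to 100 bases before it in 22 of them. The GATAAG word began 77 to 83 bases before it in all 24 msp genes that had it. The nspd genes shown carried the pair in the reverse order, with the first word on the other strand. The ssp-9 and ssp-33 genes shown carried GATAAG alone, and msp-142, beside msp-63 on chromosome II, carried neither word in this stretch.

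GATAAG is the core of the sites of GATA factors, among them ELT-1, which is known to activate msp genes during spermatogenesis. On either strand it was present in 37 of the 53 promoters of 300 bases, which is 69.8%, against 16.7% of the promoters of all protein-coding genes and 18.4% of those of the 343 neighbours. The neighbours were the other protein-coding genes within 20000 bp of a member. By family, it was found in 24 of 31 msp, 6 of 12 ssp and 7 of 10 nspd promoters. AGATAA, another GATA word that can share 5 bases with GATAAG, was in 29 of 53 promoters against 21.2% of all promoters. AGATCT, a palindrome chosen for counting after the sequences had been seen, was in 23 of 31 msp and 8 of 10 nspd promoters and in 0 of 12 ssp promoters, against 5.39% of all promoters. Both words together were in 26 of 53 members, against 223 genes or 1.12% over all genes. CACGTG, the E-box, was in 7 of 53, or 13.2%, against 5.82% of all promoters and 11.7% of the neighbours' promoters. Some member promoters are near-copies, with 98.3% identity in the closest msp pair. Counts and intervals for words in the members are therefore not from independent sequences.

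The word GACGCA, a 6-base word that had been singled out in an earlier look at these peaks, was in 0 of the 53 promoters (Wilson 95% interval 0 to 6.76%), against 8.78% of all promoters and 6.41% of the neighbours' promoters. This interval includes the share of the neighbours, so at this number of genes the count does not separate the members from them. Over all genes, promoters with GACGCA had a thresholded summit in 8.38% of cases, beside 4.34% of all genes. They had a joint-list summit in 45.3%, beside 35.0% of all genes. The word was picked from these same peaks, so these higher shares are no separate support for it. Promoters with both GATAAG and AGATCT had a joint-list summit in 69 of 223 cases over all genes, which is 30.9%. The interval of this share, 25.2 to 37.3%, includes the 35.0% of all genes. Among the members with both words it was 4 of 26 cases, which is 15.4% (interval 6.15 to 33.5%). These matches describe letters in a window and do not show which factor binds there.

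Whether SOMI-1 was found at these promoters was then read from 4 peak lists. The authors called 1 list on each replicate (29600 peaks for replicate 1 and 26067 for replicate 2) and a joint list of 26266 peaks on both replicates together. An irreproducible discovery rate (IDR) procedure, which keeps peaks whose ranking is shared between replicates, left 1667 thresholded peaks. A gene was counted when the summit, the position of highest signal given for a peak, fell in a window that began 1000 bp before an annotated 5′ end and stopped 200 bp after it. The joint list is permissive, so a single entry in it weighs little. The signal value, a number without a stated unit that the authors deposited for each peak, had a median of 39.4 over the joint list and a minimum of 91.0 in the thresholded list.

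No msp, ssp or nspd gene had a thresholded summit in its window (0 of 53, Wilson 95% interval 0 to 6.76%), beside 4.34% of all protein-coding genes and 9 of 343 neighbours, or 2.62% (interval 1.39 to 4.91%). The interval of the members includes the share over all genes, so at this number of genes the thresholded list does not separate them.

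In the joint list 6 of the 53 genes had a summit in the window, which is 11.3% (interval 5.29 to 22.6%), beside 35.0% of all protein-coding genes. Among the neighbours 96 of 343 had one, which is 28.0% (interval 23.5 to 33.0%). The difference between members and neighbours was -16.7 percentage points (Newcombe 95% interval -24.5 to -4.55), and that between members and all genes was -23.7 (interval -29.7 to -12.4). These intervals treat each gene as an independent draw and cover counting error only, while the members share sequence and location. Every member has 1 annotated 5′ end, while other genes can be counted at any of several. Among genes with 1 annotated 5′ end the neighbours stood at 22.8% and all genes at 29.2%, and the differences were -11.5 (interval -19.6 to 0.689) and -17.8 (interval -23.9 to -6.56), so that the interval against the neighbours then reached 0. The share moved with the window: it was 3.77% with 500 bp before and 100 bp after the 5′ end, and 28.3% with 2000 bp and 500 bp, where the neighbours stood at 41.4% (difference -13.1, interval -24.7 to 1.11) and all genes at 51.2%. In the replicate 2 list, that is without replicate 1, it was 5.66%. By family the joint list held 2 of 31 msp genes, or 6.45%, 1 of 12 ssp genes, or 8.33%, and 3 of 10 nspd genes, or 30% (interval 10.8 to 60.3%). The interval of the nspd genes overlapped that of every other set, so the nspd genes are not set apart from the msp genes or from the neighbours by these counts.

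The replicates gave low shares of the members too, but on different genes. The replicate 1 list held 6 of the 53 genes, or 11.3%, beside 37.9% of all genes and 32.9% of the neighbours. The replicate 2 list held 3 of 53, or 5.66% (interval 1.94 to 15.4%), beside 34.9% of all genes and 30.9% of the neighbours. No member was in both replicate lists (0 of 53, interval 0 to 6.76%), while 22.8% of all genes and 70 of 343 neighbours, or 20.4% (interval 16.5 to 25.0%), were in both. For this pair of lists the interval of the members lies below that of the neighbours. The neighbours could be counted at any of several 5′ ends, and this count was not repeated for genes with 1. With 2000 bp before and 500 bp after the 5′ end, 7 of 53 members were in both lists. The share of other genes in both lists was not counted for that window. Counting a replicate 1 summit inside a replicate 2 peak gave 1 of 53 members, beside 18.5% of all genes.

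**Figure D1:**
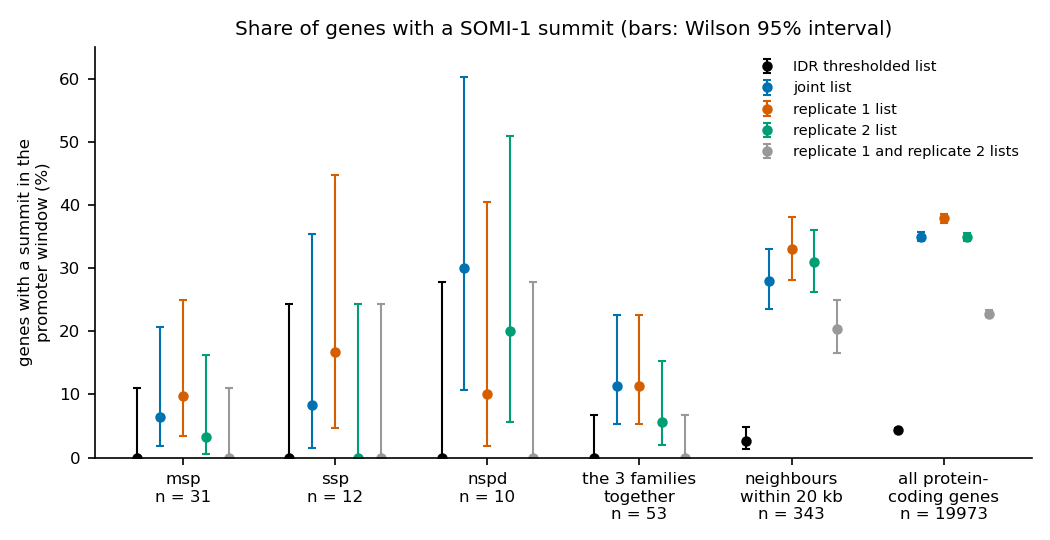
Percentage of genes (vertical axis) with a SOMI-1 summit in the window from 1000 bp before to 200 bp after the 5′ end, for each family, the 53 genes together, their neighbours and all protein-coding genes (horizontal axis). Points are shares in the 4 lists and in both replicate lists at once and bars are Wilson 95% intervals; the 53 genes stand at 11.3% in the joint list and the neighbours at 28.0%.

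Over the 4 lists 9 genes had a summit in the window in at least 1 list and 44 had none. Of the msp genes 4 were among the 9, each in part of the lists. For msp-59 on chromosome IV the joint summit lay 597 bp upstream with a signal of 44.7 (rank 9514 of 26266), and the replicate 1 summit lay 579 bp upstream with a signal of 35.5 (rank 3899 of 29600). Replicate 2 had no summit in the msp-59 window. For msp-45 on chromosome II the joint summit lay 116 bp inside the gene with a signal of 31.6 (rank 21658), and the replicate 1 summit lay 175 bp inside it with a signal of 22.9 (rank 13532). For msp-33 only replicate 1 had a summit in the window, 187 bp inside the gene with a signal of 23.5. Just beyond the window, the joint list had a summit 290 bp inside msp-33 and replicate 2 had one at 313 bp. For msp-38 only replicate 2 had summits, 243 bp upstream with a signal of 21.1 and 967 bp upstream with a signal of 30.8. So msp-59, msp-45 and msp-33 had their entries in replicate 1 and msp-38 in replicate 2.

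The nspd genes gave 3 of the 9. For nspd-3 the joint summit lay 530 bp upstream with a signal of 33.1 (rank 19610), and replicate 2 had a summit 541 bp upstream with a signal of 18.5. For nspd-7 the joint summit lay 74 bp downstream of the 5′ end with a signal of 29.3 (rank 25013), and replicate 1 had one at 83 bp with a signal of 23.2. The joint summit of nspd-2 lay at 200 bp, the edge of the window, with a signal of 45.1 (rank 9325), and replicate 2 had a summit at 18 bp with a signal of 19.8. Replicate 1 had a summit 212 bp downstream of the nspd-2 end, just outside the window. Of the ssp genes, ssp-33 on chromosome V had a joint and a replicate 1 summit at the same base, 53 bp downstream of the 5′ end, with signals of 34.4 and 26. The ssp-9 gene WBGene00006038 had a replicate 1 summit alone, 784 bp upstream with a signal of 17.8. The nearest joint summits that fell outside on the upstream side were 1038 bp upstream of msp-3 and 1121 bp upstream of msp-152.

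The joint summits ranged widely in rank. The best joint rank of a member was 9325, and the median best rank over the 6 members with a joint summit was 18840. Among all genes with a joint summit the median best rank was 10082, and among the neighbours it was 10206, so nspd-2 and msp-59 stood above these medians and the other 4 below. In the replicate lists the best ranks were 3899 of 29600 for msp-59 and 5710 of 26067 for msp-38. The 6 joint peaks had −log10 q-values from 0.0235 to 0.276, whereas the lowest in the thresholded list was 2.57. The first genes by symbol order without a summit in the window in any list were msp-10, ssp-10 and nspd-1.

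The sequence under these summits shows how far the reads there can be placed. Below are 101 bases centred on a joint summit, on the strand of the gene, in WBcel235 as held by RefSeq, with capitals for bases that lie in a stretch of 50 bases found more than once in the genome. They are shown because the msp-45 summit lies in the repeated coding sequence, those of msp-59 and nspd-3 lie in single-copy sequence upstream, and that of ssp-33 lies in coding sequence that is partly repeated.
msp-45, chrII:5156917-5157017, minus strand: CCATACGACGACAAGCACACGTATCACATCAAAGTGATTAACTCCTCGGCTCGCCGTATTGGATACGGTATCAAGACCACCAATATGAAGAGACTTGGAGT
msp-59, chrIV:5313658-5313758, minus strand: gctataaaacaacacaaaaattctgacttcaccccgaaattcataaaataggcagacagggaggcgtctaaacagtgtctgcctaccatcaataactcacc
nspd-3, chrIV:5163521-5163621, minus strand: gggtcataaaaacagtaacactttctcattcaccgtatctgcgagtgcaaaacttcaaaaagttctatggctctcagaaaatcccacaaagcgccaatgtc
ssp-33, chrV:14711380-14711480, plus strand: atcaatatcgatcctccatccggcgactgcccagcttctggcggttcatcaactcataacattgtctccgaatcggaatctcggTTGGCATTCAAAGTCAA
All 101 bases at the msp-45 summit were in repeated stretches, 17 were at the ssp-33 summit and 0 were at those of msp-59 and nspd-3. The joint summits of nspd-2 and nspd-7, whose sequences are not shown, lay inside the gene and also had 0. None of the 6 summit sequences held GACGCA or GATAAG on either strand, and none held the palindrome AGATCT.

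**Figure D2:**
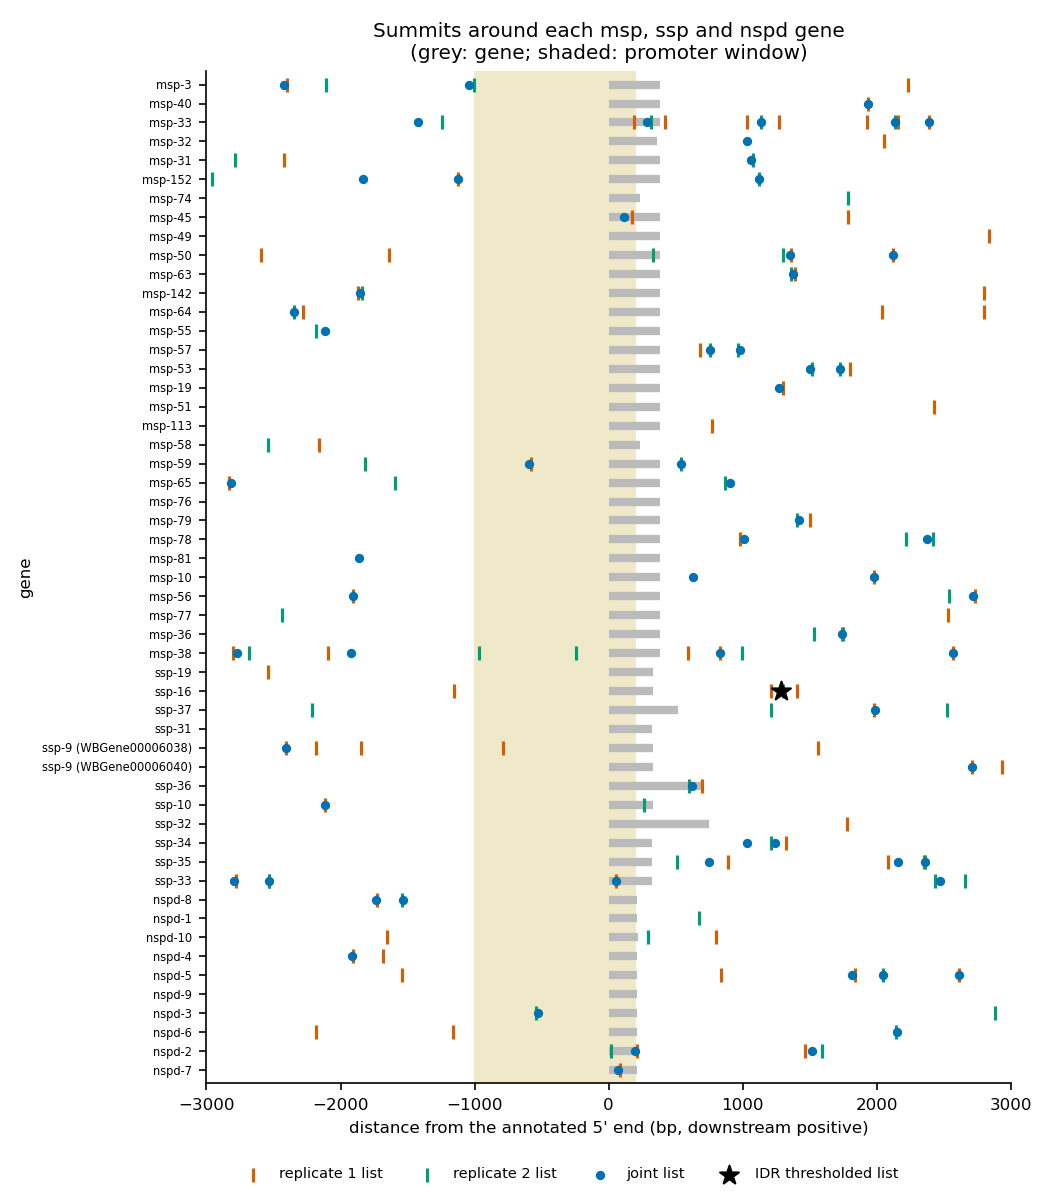
Summits of each list within 3000 bp of the annotated 5′ end (horizontal axis, bp, downstream positive) for each of the 53 genes (vertical axis), with the gene in grey and the counted window shaded. The shaded window holds 6 joint-list summits and no thresholded summit; the single thresholded summit shown lies 1288 bp downstream of the ssp-16 end.

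The copies are so alike that reads from them may not be assignable, and the sources used here do not say how reads that match several places were treated in making the lists. The share of 50-base stretches of the window that occur once in the genome had a median of 85.4% over the members, from 29.6% for msp-19 to 100%, beside a median of 100% for neighbours and for all genes. It was at least 90% for 18 of 53 members, 85.4% of the neighbours and 89.4% of all genes. The median was 85.2% for msp, 86.4% for nspd and 97.7% for ssp genes. The highest share of an msp gene was 97.1%, for msp-49. Over all genes, windows under 90% had a joint summit in 15.6% of cases and windows of at least 90% in 37.3%. The part of repeated sequence in the counts of the members was not tested.

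Among windows of at least 90% unique sequence, 1 of 18 members had a joint summit, which is 5.56% (interval 0.988 to 25.8%), beside 31.1% (interval 26 to 36.6%) of 293 neighbours and 37.3% of all genes. Among windows under 90%, 5 of 35 members had one, which is 14.3% (interval 6.26 to 29.4%), beside 5 of 50 neighbours, or 10%, and 15.6% of all genes. The members thus stood below the neighbours in the more unique windows and not in the less unique ones, where the intervals overlap widely. In both replicate lists at once there were 0 of 18 and 0 of 35 members in these classes, beside 23.2% and 4% of the neighbours and 24.4% and 9% of all genes.

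**Figure D3:**
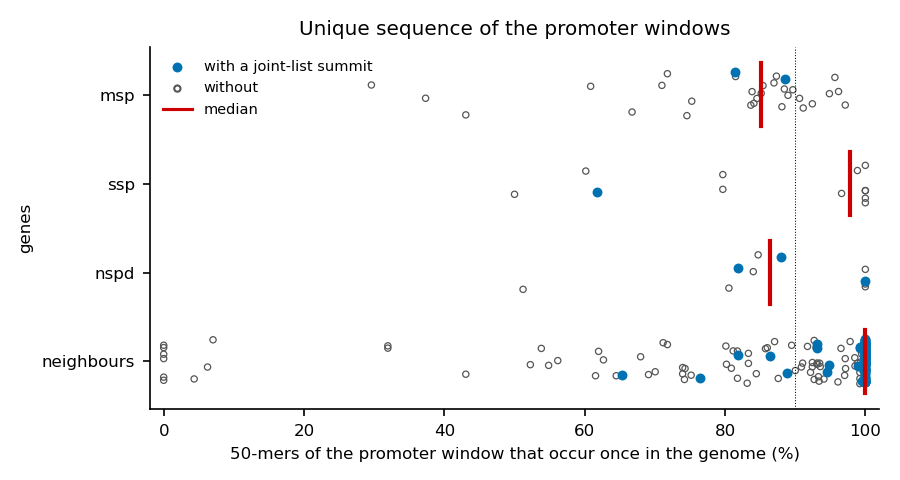
Percentage of 50-base stretches of the promoter window that occur once in the genome (horizontal axis) for msp, ssp and nspd genes and their neighbours (vertical axis), 1 point a gene. Filled points have a joint-list summit, red bars are medians and the dotted line is at 90%; the msp median is 85.2% and that of the neighbours 100%.

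Unique sequence and summits were also counted apart for the stretches before and after the 5′ end. In the 1000 bp upstream of the 5′ end the median unique share of the members was 97.9%, and in the 1000 bp from the 5′ end onwards it was 80.9%. By family the medians were 97.3% and 73.4% for msp, 100% and 94.5% for ssp, and 98.2% and 97.4% for nspd genes. In the upstream stretch 2 of 53 members had a joint summit, msp-59 and nspd-3, which is 3.77% (interval 1.04 to 12.8%). The neighbours had one in 23.0% of cases (interval 18.9 to 27.8%) and all genes in 27%. Of the 38 members whose upstream stretch was at least 90% unique, 2 had a joint summit, which is 5.26% (interval 1.46 to 17.3%), beside 25.8% (interval 21.1 to 31.0%) of 295 such neighbours and 28.8% of such genes overall. The replicate lists gave 2 of 38 each, on partly other genes, beside 29.5% of the neighbours in replicate 1 and 27.8% in replicate 2. The interval of the members lay below that of the neighbours in each of these 3 lists, but the joint list was made from the same 2 replicates. The part of repeated sequence in these counts was not tested. Read length is not given in the sources used here, so 50 bases is a stand-in for it. These stretches were chosen after the positions of the summits had been seen.

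Downstream the counts of members and of other genes were closer. In the 1000 bp from the 5′ end onwards there were 24.5 joint summits per 100 members, 24.8 per 100 neighbours and 27.9 per 100 genes overall. In the next 1000 bp there were 37.7 per 100 members, 28.3 per 100 neighbours and 27.1 per 100 genes. From 201 to 1401 bp downstream, a stretch as long as the promoter window, 17 of 53 members had a joint summit, which is 32.1% (interval 21.1 to 45.5%), beside 27.1% of the neighbours and 27.4% of all genes. Of the 17 genes 13 were msp and 4 ssp genes. Of the 20 joint summits in this stretch, 2 lay inside the member and 5 in the promoter window of another gene. Both replicate lists had a summit there for 10 members, or 18.9%, beside 13.1% of the neighbours and 14.5% of all genes. The members are short, so much of these downstream stretches lies past the gene. How much of them lies inside the other genes was not counted, so unlike parts of genes may be compared.

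The strongest joint summit of that stretch near an msp gene lay 1354 bp downstream of the msp-50 end, with a signal of 82.5 (rank 2052), and had counterparts at 1362 bp in replicate 1, with a signal of 49.2, and at 1299 bp in replicate 2, with a signal of 37.9. That of msp-57 lay at 757 bp, with a signal of 58.9 in the joint list and 39.1 in replicate 2 at the same base, and 22.1 in replicate 1 at 681 bp. That of msp-63 lay at 1373 bp, with 55.6 in the joint list, 26 in replicate 1 and 26.4 in replicate 2. These 3 summits were past the ends of the genes, and each of the 3 lists had a summit within 100 bp of the joint one. No joint summit in a promoter window had a summit of both replicates so near, although the nspd-2 summit had replicate 1 at 212 bp and replicate 2 at 18 bp.

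**Figure D4:**
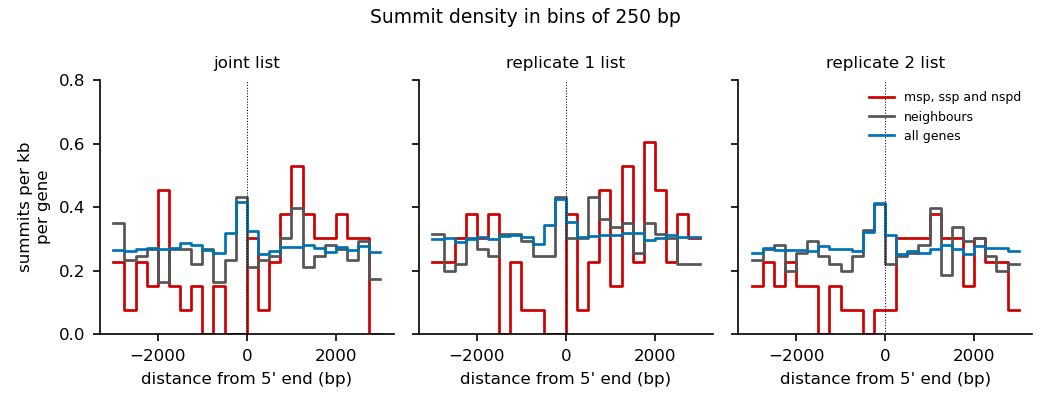
Summits per kb per gene (vertical axis) in bins of 250 bp by distance from the annotated 5′ end (horizontal axis, bp, downstream positive) in the joint and replicate lists, for the 53 genes, their neighbours and all genes. In the joint list all genes reach 0.415 in the 250 bp before the 5′ end, the neighbours 0.431 and the 53 genes 0.

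The nearest joint summit lay a median of 1744 bp from the 5′ end of a member, from 53 bp for ssp-33 to 7556 bp for ssp-31, beside 1611 bp for the neighbours and 1318 bp for all genes. In replicate 1 the medians were 1779 bp, 1170 bp and 1106 bp, and in replicate 2 they were 2046 bp, 1292 bp and 1311 bp. It was downstream for 37 members and upstream for 16, or 69.8% downstream, beside 56.0% for the neighbours and 48.4% for all genes. Within 5000 bp a joint summit was found for 47 of 53 members, or 88.7%, beside 84.0% of the neighbours and 84.6% of all genes.

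A thresholded summit was within 5000 bp of 2 members, ssp-16 and nspd-1, both on chromosome I, beside 15.2% of the neighbours and 13.3% of all genes. The nearest to ssp-16 lay 1288 bp downstream of its 5′ end, past the gene, with a signal of 158 (rank 474), and 73.2 in replicate 1 and 88.5 in replicate 2. That near nspd-1 lay 3055 bp downstream, with a signal of 94.7 (rank 1541). A second summit, 3747 bp downstream of the ssp-16 end, had a signal of 144 (rank 602). None of the 3 was in a protein-coding gene or in the promoter window of one. The median distance to a thresholded summit was 25946 bp for members, 25519 bp for neighbours and 29886 bp for all genes.

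Of the 3 long runs, 2 held more joint summits per length than their chromosome, and 2 held fewer thresholded ones. The first run on chromosome II, from msp-3 to msp-50 over 414283 bp, held 12 members and 141 joint summits, which is 3.40 per 10 kb against 2.69 over the chromosome. There 1 of 12 members and 40 of 110 other genes, or 36.4%, had a joint summit in the window. The run on chromosome IV from msp-76 to nspd-7 over 580173 bp held 14 members and 190 joint summits, 3.27 per 10 kb against 2.33 over the chromosome, with 2 members and 54 of 152 other genes, or 35.5%. The run on IV from the ssp-9 gene WBGene00006038 to msp-65 held 13 members and 65 joint summits over 322536 bp, 2.02 per 10 kb, with 2 members and 20 of 68 other genes, or 29.4%. The shortest run, msp-63, msp-142 and msp-64 over 13266 bp of chromosome II, held no joint, thresholded or replicate 2 summit and 6 replicate 1 summits. Thresholded summits came to 0.169 per 10 kb in the run from msp-3 against 0.151 over chromosome II. They came to 0.0930 in the run from the ssp-9 gene and 0.0689 in that from msp-76, against 0.142 over chromosome IV. In the 3 long runs the share of other genes with a summit thus ran from 29.4% to 36.4%, while 5 of 39 members had one.

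**Figure D5:**
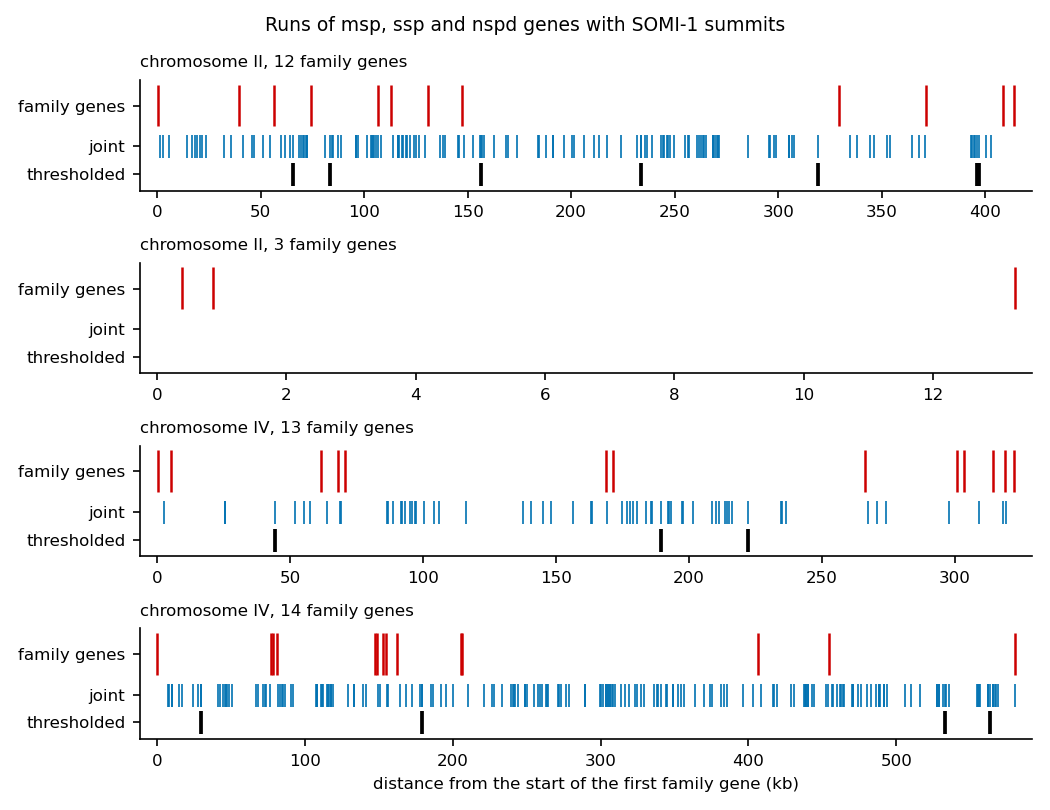
The 4 runs of msp, ssp and nspd genes by distance from the start of the first gene (horizontal axis, kb), with the 5′ ends of the family genes in red, joint-list summits in blue and thresholded summits in black. The 3 long runs hold 141, 65 and 190 joint summits and the short run none.

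Thresholded summits did occur in windows of genes next to the members. K05F1.6, 9390 bp from msp-63, had a signal of 186 (rank 300), with 90 in replicate 1 and 92.8 in replicate 2. The nuclear hormone receptor gene nhr-34, 13343 bp from msp-76, had a signal of 186 (rank 301), with 85.7 and 106 in the replicates. The next were dpsm-1, 8665 bp from ssp-37, with 167, crh-2, a CREB homologue gene 6797 bp from msp-49, with 144, and W03F8.4, 18397 bp from nspd-6, with 131. All 5 had a summit in both replicate lists. They were chosen by thresholded signal, and the IDR procedure keeps peaks shared between replicates, so this follows largely from the choice. Over all neighbours 20.4% were in both replicate lists.

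A mixed list of other sperm genes had shares nearer to those of all genes. Of 48 factors of sperm formation and function in the annotation, 0 had a thresholded summit (interval 0 to 7.41%), 16 had a joint summit, or 33.3% (interval 21.7 to 47.5%), and 12, or 25.0%, were in both replicate lists, close to the 35.0% and 22.8% over all genes. Their windows had a median unique share of 100%. Among them the joint signals were 75.4 for spe-5, 74.3 for spe-39 and 72.2 for spe-9, which encodes a sperm surface protein needed for fertilisation. The promoter window of elt-1, the GATA factor gene named above, had signals of 40.9 in the joint list, 34.8 in replicate 1 and 28.3 in replicate 2. The interval of this list barely met that of the members in the joint list, and the difference between the lists was not tested. The list holds regulators such as elt-1 beside other sperm genes, so its share need not hold for each kind. For example, spch-1, spch-2, spch-3, smz-1, smz-2, gsp-3, gsp-4 and htas-1 had no joint summit in the window. Among them, gsp-3 and htas-1 had a summit in the replicate 1 list and spch-2 in the replicate 2 list. All the genes of this example were picked after their values were seen.

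Of 7 genes for relatives of MSP and partners of its filaments, 1 had a summit, and it was in all 4 lists. That was vpr-1, whose product carries an MSP domain and is made outside sperm as well, with a thresholded summit 823 bp upstream and a signal of 160 (rank 459), and 60.3 in replicate 1 and 100 in replicate 2. The median unique share of that list was 77.8%. Of 23 genes that act in the response of oocytes and sheath cells to MSP, 11 had a joint summit, or 47.8% (interval 29.2 to 67.0%, which includes the 35.0% over all genes), and 2, or 8.70% (interval 2.42 to 26.8%), had a thresholded one, beside 4.34% of all genes. These were kin-1, the catalytic subunit of protein kinase A, with a signal of 174 (rank 374) at 317 bp upstream, and gsa-1, the G protein alpha subunit that stimulates adenylate cyclase, with 107 (rank 1179) at 296 bp upstream. Both genes also act in many other tissues.

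The other nematode-specific peptide families with names like nspd, the nspa, nspb, nspc and nspe genes, also include repeated copies. Their windows had a median unique share of 87.5%, beside 85.4% for the members, but with a wider spread: 11 of 48 lay below the lowest member and 11 were fully unique. Of 48 such genes 8 had a joint summit, or 16.7% (interval 8.70 to 29.6%), and 6, or 12.5% (interval 5.86 to 24.7%), were in both replicate lists, where the members had 0 of 53. The 1 with a thresholded summit was nspc-17 on chromosome X, with a signal of 359 (rank 42), and 187 in replicate 1 and 179 in replicate 2. The joint-list intervals of these families and of the members overlap, and the difference was not tested.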

How the data were processed

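Peak lists of SOMI-1-eGFP ChIP-seq on ce11 were used, from 2 biological replicates of 1 group, per the labels. Text files deposited beside them state that the authors used 1 control alignment for each list and made the thresholded one by IDR. Which aligner, peak caller and settings were used, and how deep the reads were, is not given in the sources used here. Control reads were not analysed here. Peak signal values were deposited by the authors without a unit. The −log10 q-values, also deposited by the authors, serve as a description. The summit offset in each peak is the authors' own. Ranks order a list by signal. Depth is unknown, so its part in missing summits cannot be judged here. Intervals cover counting error only.

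Genes came from Ensembl release 115 and sequence from the RefSeq copy of WBcel235, and positions are 1-based. No test was made, because there is 1 group and the members and lists were chosen with earlier results of these data known. The genes named are those with a summit in the window in any list, neighbours and genes of other lists with thresholded summits, and those at the extremes of distance and unique share. The genes msp-3, msp-152, msp-50, msp-57 and msp-63, and the sperm factors, were named after their values were seen. Of the gene lists, 5 names of MSP relatives and partners (among them mfp-1) and 3 of sperm factors were not in the annotation. The list of MSP relatives holds mib-1, whose product has no MSP domain. Sequence identity is from global alignment with Biopython 1.88. Unique shares count 50-base words once in the genome on both strands. The window counts and unique shares were tested on simulated data. Alternatives were other windows, assignment rules, peak numbers and neighbourhoods, unique windows, and each replicate alone. The value of 1 sperm factor is not reported here.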

Additional observations from a re-analysis of the deposited data

How the results depend on the processing

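Of 74 recomputed values, 52 kept their direction and lay within the interval or spread of the first value, 20 moved beyond it and 2 reversed. The thresholded share stayed at 0 except when each summit went to its nearest 5′ end, where it was 1.89% (1 member). With 500 bp before and 100 bp after the 5′ end the joint and replicate 1 shares were both 3.77%. With 2000 bp and 500 bp the shares were 28.3% joint, 32.1% replicate 1, 22.6% replicate 2 and 13.2% in both replicate lists. With the nearest 5′ end at any distance they were 41.5%, 43.4%, 32.1% and 24.5%, beside joint shares of 48.1% for neighbours and 57.5% for all genes. The difference from neighbours was then -6.60 (interval -19.9 to 7.79). With any base of a peak in the window the shares were 17%, 18.9%, 15.1% and 3.77%. In windows at least 90% unique the replicate 2 share was 0, and the joint difference was -25.5 points from neighbours and -31.7 from all genes. Among the 5000 joint peaks of highest signal the share was 0 and the differences -6.71 from neighbours (interval -9.86 to 0.401) and -10.6 from all genes, and among the 10000 highest the share was 3.77%. From 2201 to 1001 bp upstream the differences were -2.57 and -6.99. From 201 to 1401 bp downstream the share was 32.1% and the differences reversed to 4.96 and 4.70. These last windows were added after the data were seen, and each is other sequence by construction; for the other moves the cause was not tested. With each replicate list in place of the joint list the share ran from 5.66% to 11.3%, the difference from neighbours from -25.2 to -21.6, that from all genes from -29.3 to -26.6, and the median distance from 1779 to 2046 bp. The lower share, 5.66%, is without replicate 1. No paired analysis was possible because there is 1 group. The few peaks behind each share, the unknown depth and the unknown treatment of repeated reads limit all counts. Where the sequence inside a gene is repeated, a missing summit cannot be told apart from reads that were not placed. The windows of 9 of the 53 members were fully unique at 50 bases.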
